A study of Drosophila melanogaster with 3 samples.

Results

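Chromatin immunoprecipitation followed by sequencing (ChIP-seq) of the protein wek in Drosophila melanogaster embryos gave 3582 peaks, and 1015 of them (28.3%) lay in 199 clusters. A cluster was a run of at least 4 peaks on a chromosome arm in which each summit, the point of highest signal within a peak, lay at most 10 kb from the next. The other peaks were 1183 isolated peaks, with no other summit within 10 kb, and 1384 peaks in 407 pairs and 190 triples. The members were chosen from the positions of the same peaks that are described here, so their closeness is a description and carries no test.

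The samples formed 1 group of 3 biological replicates of whole embryos, 0 to 16 hours old and of mixed sex. They came from 1 transgenic line, wek-GFP, in which green fluorescent protein is fused to the C terminus of wek, and all 3 carried this insertion. The assay and antibody labels describe ChIP of wek, while the free-text label calls the libraries input controls, and they were treated here as ChIP. An untagged line was not analysed here, whole embryos mix all cell types, and read numbers are not part of the peak lists, so depth is unknown.

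The protein wek, or Weckle, belongs to the family of ZAD zinc finger proteins, which pair through their ZAD domains and bind DNA through zinc fingers. It was described in the embryo as a partner of the Toll receptor in the signalling that sets the dorsoventral axis. Runs of neighbouring ChIP peaks in the fly genome are found both where short genes lie close together, each with its own promoter, and along long genes with several start sites and intronic enhancers.

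Both settings occurred among the clusters, and the following stretches of dm6 sequence show what lay under members of each (RefSeq genome, plus strand, 5′ to 3′, capitals marking the element searched for). The first 3 come from 1 cluster on 3L that joins the genes CycH to P5CDh1. Its members at the promoter of Nopp140 and in the intergenic stretch beside CG32448 (there on the minus strand) held the word GAATACCC. This is an 8-base word singled out in earlier work on these peaks. A member at P5CDh1 held TATCGATA, the DNA replication-related element (DRE) that the factor DREF binds. The next 2 are intronic members of the cluster over cbt and ush on 2L, with GAATACCC (read on the minus strand) and with a GATA site (AGATAA, minus strand). The stretch at bun, also in an intron, holds a GATA site. Those at crb and Gfat2 on 3R show the M1BP element GGTCACAC, the Gfat2 one on the minus strand, and the last one, near chinmo, is a run of GAGA repeats, the sequence bound by GAGA factor.
Nopp140, chr3L:21832654-21832741: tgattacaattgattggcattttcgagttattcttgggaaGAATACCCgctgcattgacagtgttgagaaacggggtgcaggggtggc
CG32448, chr3L:21830277-21830364: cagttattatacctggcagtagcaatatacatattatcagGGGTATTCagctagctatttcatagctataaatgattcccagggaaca
P5CDh1, chr3L:21841382-21841469: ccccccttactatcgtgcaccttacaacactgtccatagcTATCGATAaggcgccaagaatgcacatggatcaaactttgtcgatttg
cbt, chr2L:480958-481045: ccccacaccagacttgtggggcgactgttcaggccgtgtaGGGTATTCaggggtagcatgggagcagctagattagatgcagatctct
ush, chr2L:485918-486003: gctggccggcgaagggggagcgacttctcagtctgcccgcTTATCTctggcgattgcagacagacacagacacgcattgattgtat
bun, chr2L:12497870-12497955: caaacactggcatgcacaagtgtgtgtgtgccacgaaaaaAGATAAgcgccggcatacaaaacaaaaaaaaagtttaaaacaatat
crb, chr3R:24294969-24295056: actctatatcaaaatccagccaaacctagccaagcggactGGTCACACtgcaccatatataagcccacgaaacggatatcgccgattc
Gfat2, chr3R:28339825-28339912: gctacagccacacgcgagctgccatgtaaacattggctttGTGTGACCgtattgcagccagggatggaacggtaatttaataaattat
chinmo, chr2L:1648853-1648938: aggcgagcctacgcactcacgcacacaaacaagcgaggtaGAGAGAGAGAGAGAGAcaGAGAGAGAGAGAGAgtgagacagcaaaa

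Each element lies within 100 bp of its member's summit, except that the GAGA run near chinmo begins inside that window and extends beyond it. The stretches shown were picked after the values were seen. A match is a description of the letters and not a shown binding site.

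Clusters were short stretches dense in genes. Their span from first to last summit had a median of 13.1 kb and ran from 3.35 to 52.3 kb, and the gap between neighbouring summits had a median of 2656 bp (quartiles 1265 and 5311 bp), with 150 of 816 gaps under 1000 bp. Together the spans covered 2.86 Mb, 2.14% of the 133.9 Mb of the arms X, 2L, 2R, 3L, 3R and 4. The spans held 2.04 starts of coding genes per 10 kb, against 1.04 on the arms as a whole. A cluster spanned a median of 3 coding genes (0 to 12), and 144 of the 199 spanned more than 1. In the pooled list from which the peaks were taken, weaker regions that are not peaks were also dense there, at 5.19 per 10 kb in the spans against 1.97 on the arms. Spans start and end at summits, and 51.1% of all peaks have their summit within 500 bp of a coding gene's start. They were also chosen for close peaks from that same pooled list. Both densities thus partly follow from how the spans were drawn, and they are given without a test.

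Most clusters were small. There were 91 of 4 peaks, 53 of 5, 28 of 6, 14 of 7, 6 of 8, 4 of 9, 1 of 10 and 2 of 13. The distance limit had no natural break around it. The widest gap inside a cluster was 9954 bp and the smallest gap beyond the limit was 10017 bp, 31 of the 190 triples had a further summit within 12000 bp, and 11 of the 91 clusters of 4 held a gap over 9000 bp. Some neighbours were not separate regions: 52 members in 26 clusters overlapped another peak, and 16 of these had the same start and end as a neighbour.

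**Figure D1:**
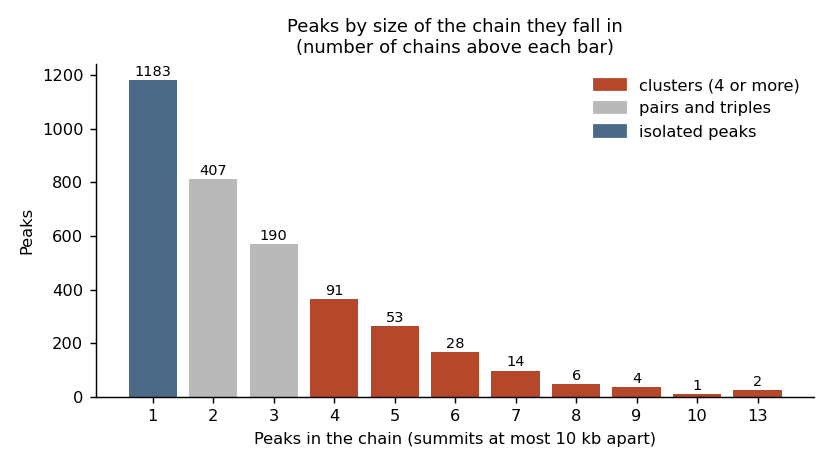
Peaks (vertical axis, number) by the number of peaks in the chain they belong to (horizontal axis), with the number of chains above each bar. Clusters of 4 and more hold 1015 peaks, pairs and triples 1384 and isolated peaks 1183.

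The share of an arm's peaks that lay in clusters was highest on 2L. It was 38.4% on 2L (95% exact interval 34.7 to 42.1%), 30.6% on 3L (27.3 to 34.1%), 25.6% on 2R (22.5 to 29.0%), 24.7% on 3R (21.8 to 27.7%), 23.1% on X (19.7 to 26.8%) and 12.1% on 4 (3.40 to 28.2%). The number of peaks per 100 kb was also highest on 2L, at 2.93, against 2.35 on X. These intervals treat peaks as independent, but the 264 members on 2L came from 48 clusters and the 221 on 3L from 43. They are therefore too narrow to compare arms by. Because the rule chose members by closeness, the shares are given without a test.

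The widest cluster ran along a single large gene. All 13 of its summits (2L:12457403-12509654) lay in bun, which encodes a TSC22-family regulator of growth and is 91.1 kb long with 7 annotated starts. The span also holds starts of other coding genes, CG43051 and t-cup. Of the 13 summits, 3 were at promoters of bun, 1 was at the promoter of CG43051, 7 were in introns and 2 in exons. The strongest, 172 bp upstream of a bun start, had a signal of 480 and ranked 485, 986 and 381 by signal in replicates 1, 2 and 3, among 30000 regions in each. An intronic summit 40.4 kb from the first summit of the cluster, 504 bp upstream of the t-cup start, had a signal of 475.3 and ranked 460, 649 and 539. The weakest of the 13, at 149.8, ranked 2971, 8999 and 2584, so replicate 2 placed it far lower than the other replicates did. A peak was counted as met by a replicate when it overlapped, by at least 1 bp, 1 of that replicate's 3582 regions of highest signal, and 7 of the 13 peaks were met in all 3 replicates.

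The other cluster of 13 lay in a stretch poor in coding genes (3L:606835-654304), between Reg-2 and the translesion polymerase gene Rev1, whose start lies beside that of the Mediator subunit gene MED30. Only its first and last summits were at promoters. The last, 59 bp upstream of Rev1, had the highest signal, 385.5, and ranked 711, 702 and 759. Of the others, 8 lay in noncoding genes and 3 were intergenic, with signals from 163.4 to 327.8. In this cluster 8 of the 13 members were met in all 3 replicates.

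Several further clusters lay within genes of signalling and transcription. All 9 summits of the cluster at 2R:11173626-11207244 lay in shn, which encodes a zinc finger protein of the Dpp pathway. Its promoter summit had a signal of 571.9 and its strongest intronic one 586.3. The cluster at 2L:468910-490789 covered cbt, a zinc finger transcription factor gene, and ush, which encodes the Friend of GATA cofactor of GATA factors. Its intronic summits with the sequences shown above had signals of 1271 and 1144, with ranks of 94, 85 and 58 for the first and 89, 175 and 155 for the second. Its promoter summits were lower, at 551.3 (CG4297), 471.4 (cbt) and 237.5 (ush). The ush promoter summit ranked 1126 and 878 in replicates 1 and 3 and 13274 in replicate 2. On X, 6 of 8 summits (X:2293653-2304120) lay in Raf, the kinase gene of the Ras pathway, with signals from 281.7 to 776.5, and 7 of the 8 were met in all 3 replicates. At Lk6 and l(3)neo38 (3R:11761048-11780360) a Lk6 intronic summit reached 1383 and ranked 104, 87 and 19, while only 2 of 8 members were met in all 3 replicates. Lk6 encodes a kinase of the cap-binding translation factor eIF4E.

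The remaining clusters with most summits were mixed. The cluster of 10 on 2L held summits at drongo, an ArfGAP gene, at aru and at PNUTS, a gene of a nuclear phosphatase partner, with signals from 161.1 to 565.2. In the cluster of 9 around CG5953 the strongest summit was intronic (744.2, ranks 242, 275 and 182). In the cluster of 9 beside Wdr81 it was intergenic, near Hacd1 (535.8, ranks 307, 652 and 585).

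Other clusters joined the promoters of neighbouring genes, among them some of very strong signal. At 3L:21821920-21841377, 7 of 8 summits were at promoters and 1 was intergenic. The summit at CG7148 and Nopp140, which encodes a nucleolar phosphoprotein, had a signal of 2155 and ranked 22, 20 and 35. CG32448 followed with 1918 (ranks 29, 23 and 85) and CycH, the cyclin of the kinase that activates other cyclin-dependent kinases, with 1176 (ranks 103, 97 and 142). Close by, eIF2A, whose summit window held a DRE and an M1BP element, had 371.9, and the intergenic summit with GAATACCC had 330.8. The P5CDh1 summit with the DRE had 164 and ranked 2445, 3369 and 3401. A second promoter summit of P5CDh1 had 366.1 and ranked 709, 596 and 1817. Strong and weak promoters thus lay side by side, and 7 of the 8 members were met in all 3 replicates.

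The single strongest member lay within 500 bp of starts of both His3.3A and CG14036 (2L:5044751-5070998, signal 3282, ranks 3, 6 and 6). His3.3A is the gene of a histone H3 variant deposited outside DNA replication. The 6 other members of that cluster had signals between 163.4 and 360.2, the highest at the ribosomal protein gene RpL37A. At 2R:22637705-22646309 all 4 summits were at promoters. CG3732 had 3060 (ranks 5, 4 and 11) and RpS24 had 255.8. The summit at bonsai and Cdk9, the kinase of transcription elongation, had 236.3, and the last summit, at CG2852, had 176.3. Of the other clusters chosen for their strongest peak, 1 had it at eIF3k, a translation initiation factor gene (2586, ranks 8, 17 and 9). The others had it at CG8229, CG33199 and Tom7 (2498, ranks 10, 15 and 12) and at CG1792 and Mnat9 (2338, ranks 18, 8 and 21). The CG8229 peak and the neighbouring peak at Tom7, 200 bp away, met the same region in each replicate.

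**Figure D2:**
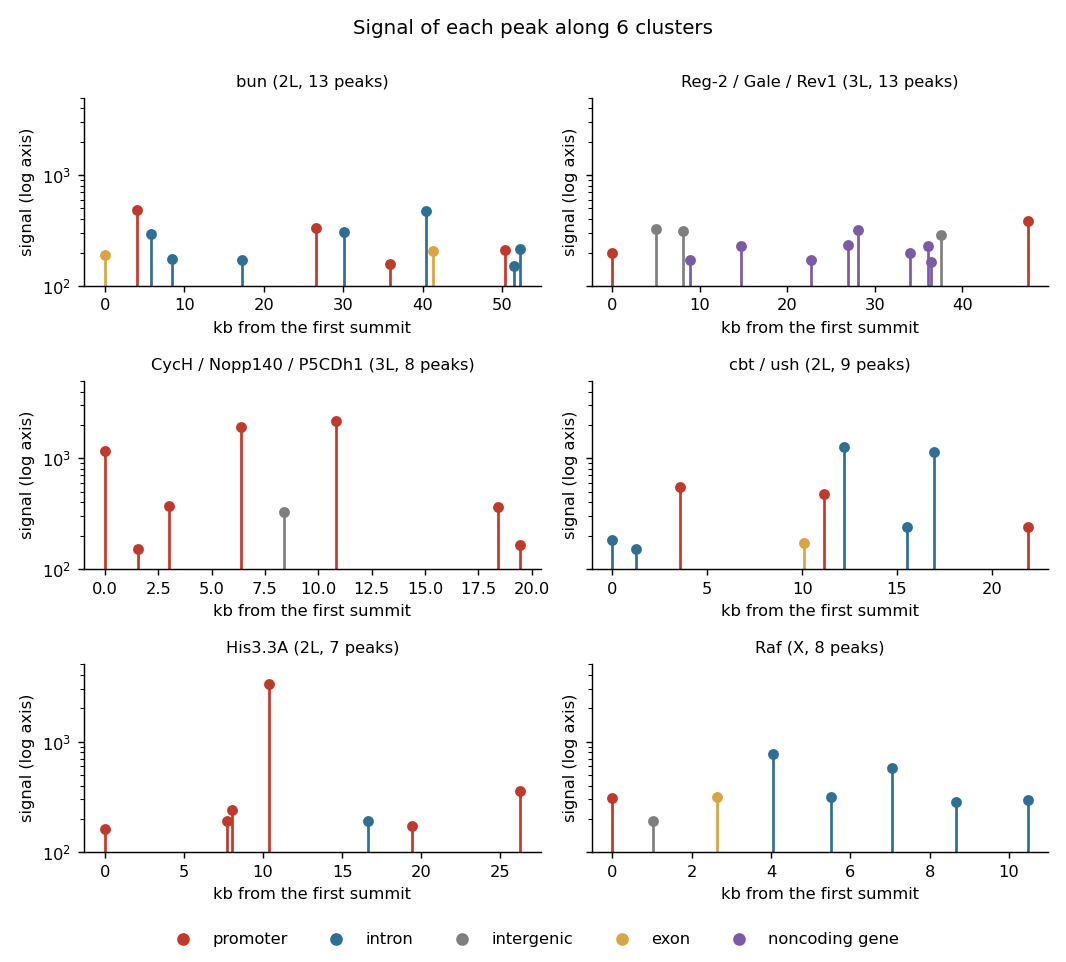
Signal of each peak (vertical axis, log scale, as the authors' caller gave it) against the distance of its summit from the first summit of the cluster (horizontal axis, kb), in 6 clusters, coloured by location. The 13 peaks at bun range from 149.8 to 480, while the His3.3A peak at 3282 stands above 6 peaks of at most 360.2.

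The shortest clusters lay within single genes or between close neighbours. The cluster at brwl (2L:9567514-9570864) packed 5 summits into 3.35 kb, with signals of 1634, 243.9, 482.1, 277.8 and 260.7. The first 2 lay 206 bp apart and met 1 and the same region in each replicate, and all 5 members were met in all 3 replicates. The cluster at Dsp1, a high mobility group protein gene, and CG9921 spanned 3.58 kb, that at isoQC and CG32428 3.80 kb, and that in simj 4.19 kb. The cluster at sip2 and the haem synthesis gene Coprox spanned 4.24 kb. In simj, a gene of the Mi-2/NuRD chromatin remodelling complex, all 4 summits were intronic, with signals from 159.4 to 363.7.

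Members of a cluster differed in signal. The strongest member, which is above the others by definition, carried a median of 36.4% of the cluster's summed signal (11.95 to 82.1%), and its signal was a median of 3.20 times that of the weakest (1.14 to 20.1 times). It lay at a promoter in 101 of the 199 clusters (50.75%), close to the 51.1% of all peaks at promoters. Over all peaks the signal of members (median 226.9, quartiles 174.7 and 340.2) lay close to that of isolated peaks (median 211.6, quartiles 170 and 311). Among the 358 peaks of highest signal were 113 members (11.1% of members), 150 peaks of pairs and triples (10.8% of those) and 95 isolated peaks (8.03%). Signal chose the peaks, so it is not tested.

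By the position of their summits, 23 clusters had promoter summits only, 153 had promoter and other summits and 23 had no promoter summit. A promoter summit was one within 500 bp of an annotated transcription start site (TSS) of a coding gene. Clusters of promoter summits only had a median span of 10.2 kb and a median of 5 bound genes, a bound gene being one with a summit within 500 bp of a TSS. They held the run of small heat shock genes Hsp22, Hsp23, Hsp26, Hsp27 and Hsp67Bc with CG4456 (3L:9372801-9383907, 4 summits, signals from 150.5 to 375.9). Only 1 of these 4 summits was met in all 3 replicates. The most genes, 10, were bound at 2R:23940318-23964810, among them Alas, the gene of the first enzyme of haem synthesis, and Taldo, a gene of the pentose phosphate pathway, with a strongest signal of 1876. The cluster at 3R:27916521-27922793 joined RpL4 with the mitochondrial ribosomal protein gene mRpS22, and 4 of its 5 members were met in all 3 replicates. Further such clusters included Tsc1 and p38a, and nanos and sqz.

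Of the 199 clusters, 33 with 171 members lay within the body of 1 coding gene. Beside bun and shn, these genes included CHES-1-like, a forkhead factor gene, with 8 summits, PRAS40, a regulator of the TOR complex, with 7, and px and the GTPase regulator gene RapGAP1 with 6 each. The remodeller gene Mi-2 also had 6. NFAT, the chromatin kinase gene Tlk, the repressor gene cic, the demethylase gene Kdm2 and the axon guidance gene NetA had 5 each. Their strongest signals ranged from 224.2 at Fim, whose body overlaps CG5445, to 1859 at sbb, where all 5 summits were intronic. The genes of single-gene clusters had a median length of 39.8 kb, against 3.70 kb for all bound coding genes and 2.16 kb for all coding genes, and a median of 3 annotated TSSs, against 1 and 1. A cluster within 1 gene needs a gene long enough to hold it, so these lengths are a description.

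Members lay less often at promoters and more often in introns than isolated peaks did. Neither difference passed the test among only the peaks met by both replicates 2 and 3, or by both replicates 1 and 2. Promoters held 459 of 1015 member summits (45.2%, 95% exact interval 42.1 to 48.3%) and 630 of 1183 isolated summits (53.3%, 50.4 to 56.1%), against 51.1% of all peaks (odds ratio 0.725, two-sided Fisher's exact test, p adjusted over 5 location classes by Benjamini-Hochberg 4.90e-04). Introns of coding genes held 39.2% of member summits and 29.3% of isolated summits (odds ratio 1.56, adjusted exact p = 5.08e-06). Intergenic sequence held 10.7% and 13.1%, exons 2.56% and 2.96%, and noncoding genes 2.27% and 1.44%, and none of these passed (adjusted exact p = 0.166, 0.604 and 0.192). Among peaks of pairs and triples, 53.7% were at promoters and 32.7% in introns.

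These tests count peaks, and peaks of 1 cluster are neighbours that share genes. With 1 peak per cluster, always the summit of lowest coordinate, neither call held (promoter odds ratio 0.770 and intron odds ratio 1.37, adjusted exact p = 0.153 for both). Using only peaks met in both other replicates, the promoter odds ratio was 0.802 without replicate 1 and 0.829 without replicate 3 (adjusted exact p = 0.305 and 0.361). The intron odds ratio was 0.962 without replicate 1, on the other side of 1, and 1.25 without replicate 3 (adjusted exact p = 0.871 and 0.361). Both calls held without replicate 2 (promoter odds ratio 0.750 and intron odds ratio 1.41, adjusted exact p = 0.0417 and 0.0413). These settings thin the same list of peaks and chain it anew. They kept 1911 peaks without replicate 1, 2322 without replicate 2 and 2258 without replicate 3, so they differ in size as well as in replicate.

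Applied to each replicate's own 3582 regions of highest signal, the rule gave the same direction 3 times. The promoter share was 49.4% of clustered and 57.0% of isolated regions in replicate 1, 35.3% and 43.4% in replicate 2, and 48.4% and 59.6% in replicate 3. The mean difference, clustered minus isolated, was −8.93 ± 1.93 percentage points (SD, n = 3), and that of introns was 7.73 ± 2.62 (SD, n = 3). The exact two-sided sign-flip permutation test gave p = 0.25 for each, the smallest that 3 replicates allow. At promoters, 67.4% of 457 member summits (95% exact interval 62.9 to 71.7%) and 69.0% of 629 isolated summits (65.2 to 72.6%) lay upstream of the TSS, a difference that did not pass (two-sided Fisher's exact p = 0.597, a comparison added after the data were seen).

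**Figure D3:**
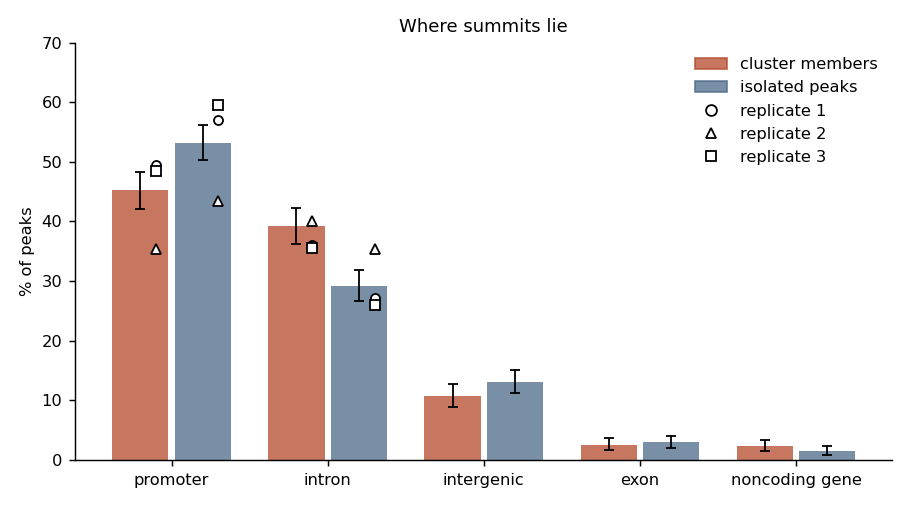
Share of summits (vertical axis, %) in each location class, for cluster members (left bar of each pair) and isolated peaks (right bar), with exact 95% intervals and, for promoters and introns, the values from the rule applied to each replicate (points). Members are lower at promoters, 45.2% against 53.3%, and higher in introns, 39.2% against 29.3%.

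Replicates met members somewhat more often than isolated peaks. Members were met by replicates 1, 2 and 3 in 89.9%, 72.8% and 75.6% of cases (79.4% ± 9.15, SD, n = 3) and isolated peaks in 83.7%, 70.6% and 69.2% (74.5% ± 7.98, SD, n = 3). All 3 replicates met 528 members (52.0%, 95% exact interval 48.9 to 55.1%) and 534 isolated peaks (45.1%, 42.3 to 48.0%), against 49.6% of peaks in pairs and triples and 48.8% of all peaks. The peaks come from these replicates, so this is not tested. At promoters the shares met by all 3 were 53.6% of members and 42.5% of isolated peaks, in introns 50.5% and 52.0%, and in intergenic sequence 53.2% and 41.9%. Of members missed by 1 replicate only, 40 were missed by replicate 1, 175 by replicate 2 and 141 by replicate 3.

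**Figure D4:**
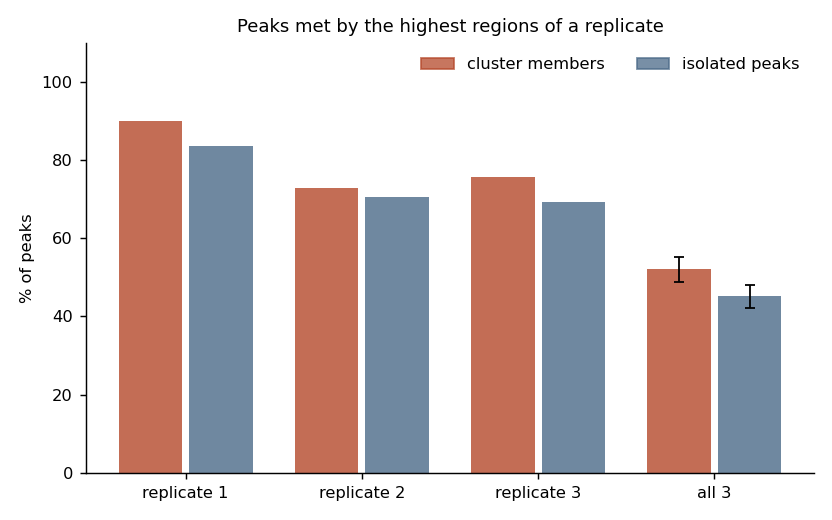
Share of peaks (vertical axis, %) met by the 3582 regions of highest signal in each replicate and in all 3, for cluster members (left bar) and isolated peaks (right bar), with exact 95% intervals for all 3. Members reach 52.0% for all 3 and isolated peaks 45.1%.

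Few clusters were met whole. Of the 199, 4 had every member met in all 3 replicates, 44 had at least 4 such members, and 7 had none. The rule was also run in each replicate's own list. A cluster counted as given when a cluster of that replicate overlapped its span by any amount, whether or not members were shared. On this loose count the rule gave a cluster over 160 (80.4%), 121 (60.8%) and 124 (62.3%) of the 199 in replicates 1, 2 and 3 (mean 67.8% ± 10.9, SD, n = 3). For 70 clusters this held in all 3 replicates, for 77 in 2, for 41 in 1 and for 11 in none. The cluster at 3L:771549-791420 was given in all 3, although 0 of its 4 members were met in all 3. Of the 10 clusters with most summits, 9 were given in all 3, and that of Lk6 and l(3)neo38 in 2. Clusters without promoter summits were given in all 3 in 11 of 23 cases and those of promoter summits only in 6 of 23.

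Members bound 514 coding genes, 3.68% of 13968. All peaks bound 2155 (15.4%), so 23.9% of bound genes were bound by a member. Members of the 19 gene lists are given as counts beside these shares. Of 93 cytosolic ribosomal protein genes, 76 were bound and 17 of them by a member (22.4% of those bound), close to the share over all bound genes. RpS4, RpS24, RpL4 and RpL37A were among them. Of 37 translation factor genes, 15 were bound and 7 by a member, eEF1alpha1, eEF5, eIF2beta, eIF3h, eIF3k, eIF4A and eIF6. Of 30 heat shock and chaperone genes, 12 were bound and 6 by a member, and these 6 are the neighbours on 3L described above, so they count as 1 locus. Of 23 insulin and TOR signalling genes, 12 were bound and 6 by a member, among them the insulin receptor gene InR, Tsc1 and bun.

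Of 20 JNK signalling genes 10 were bound and 4 by a member, and of 25 EGFR and Ras genes 8 and 4. Of 39 Toll signalling genes 9 were bound and 2 by a member, cact, which encodes the inhibitor Cactus, and mop. Among 28 segmentation genes 3 were bound and 0 by a member, among 19 ecdysone response genes 8 and 0, and among 11 homeotic genes 0 and 0. In the other lists 1 to 3 genes were bound by a member. These were 1 of 24 Notch genes, 1 of 22 Dpp and BMP genes, 1 of 25 cell death genes, 2 of 31 Wnt genes, 2 of 28 Hippo genes, 2 of 16 Hedgehog genes and 2 of 29 Polycomb and trithorax genes. Axon guidance had 3 of 40 and cytoskeleton and adhesion 3 of 44.

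Some list members held several summits of 1 cluster inside the gene body. Over all coding genes, 104 (0.745%) held at least 3 summits of 1 cluster. In the EGFR and Ras list these were Raf with 6, and S, Src64B and aop with 4 each. The 4 summits in S, which encodes a protein needed for export of the EGFR ligand Spitz, had signals up to 1081, and 3 were met in all 3 replicates. The summits in aop, the gene of the repressor Yan, ran from 151.5 to 314.6. In the JNK list, msn and the phosphatase gene puc held 4 each. Those in puc had signals of at most 273.4 and none was met in all 3 replicates. In the Polycomb list ph-p held 4, up to 1441, and in axon guidance NetA held 5, its receptor gene fra 4 and caps 3. The 4 summits in fra were all met in all 3 replicates. The Toll list had Pli with 3, the homeotic list lab with 3, Hedgehog rdx with 4, Hippo crb and wts with 3 each, Notch mam with 3, and the cytoskeleton list chic and jar with 3 each. None of the mam summits was met in all 3 replicates.

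None of 9 sequence elements passed the test of a difference between members and isolated peaks over all summits. Both strands were searched in the window reaching 100 bp to each side of the summit, and 0 passed Fisher's exact test after adjustment over the 9, or at an unadjusted p under 0.05. The DRE was found at 4.14% of member and 3.89% of isolated summits, GAGA repeats (GAGAGA) at 14.7% and 13.1%, and CA repeats (CACACA) at 23.6% and 23.1%. The E-box CAGCTG was found at 10.9% and 11.9%, the homeodomain core TAATTA at 11.1% and 10.2%, GATA sites at 14.0% and 14.6%, and the Zelda site CAGGTAG at 0.788% and 1.35%. The word GAATACCC was found at 3.15% and 2.45%, and the M1BP element at 4.53% and 2.96%, with adjusted exact p from 0.486 for the M1BP element to 0.827. In windows of the same length at 19275 coding TSSs, the shares were 6.44% for the DRE, 5.68% for the M1BP element, 9.73% for GAGA repeats, 16.1% for CA repeats, 13.4% for the E-box, 9.39% for the homeodomain core, 10.6% for GATA sites, 1.08% for the Zelda site and 0.576% for GAATACCC. These windows all lie at starts, while the shares above cover summits at promoters and elsewhere, so the 2 sets are unlike. At promoter summits alone the DRE was found at 8.5% of members and 6.8% of isolated peaks. There the M1BP element was found at 9.80% and 5.24%. GAATACCC was singled out in earlier work on these peaks, so its higher share at peaks is no separate result. The M1BP element ends in letters that the CA repeat shares, so 1 stretch can hold both.

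The comparison was then split by location, after the values over all summits had been seen. At promoter summits the M1BP element, the site of the promoter factor M1BP, was found at 45 of 459 members (9.80%) and 33 of 630 isolated peaks (5.24%). The odds ratio was 1.97 (adjusted exact p = 0.0386 over 9 elements), and this did not pass when adjusted over all 27 tests made (0.116). The call over 9 held in 2 of 14 alternatives. In the replicates' own regions the shares were 10.5%, 7.12% and 8.78% of clustered and 4.96%, 4.59% and 6.51% of isolated promoter regions, higher among clustered ones in 3 of 3. The peaks come from these replicates, and the element was picked after its values were seen, so this direction is no separate test. The other 8 elements at promoters and all 9 at other summits did not pass. Away from promoters GAATACCC was found at 9 of 556 members and 3 of 553 isolated peaks (adjusted exact p = 0.324).

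**Figure D5:**
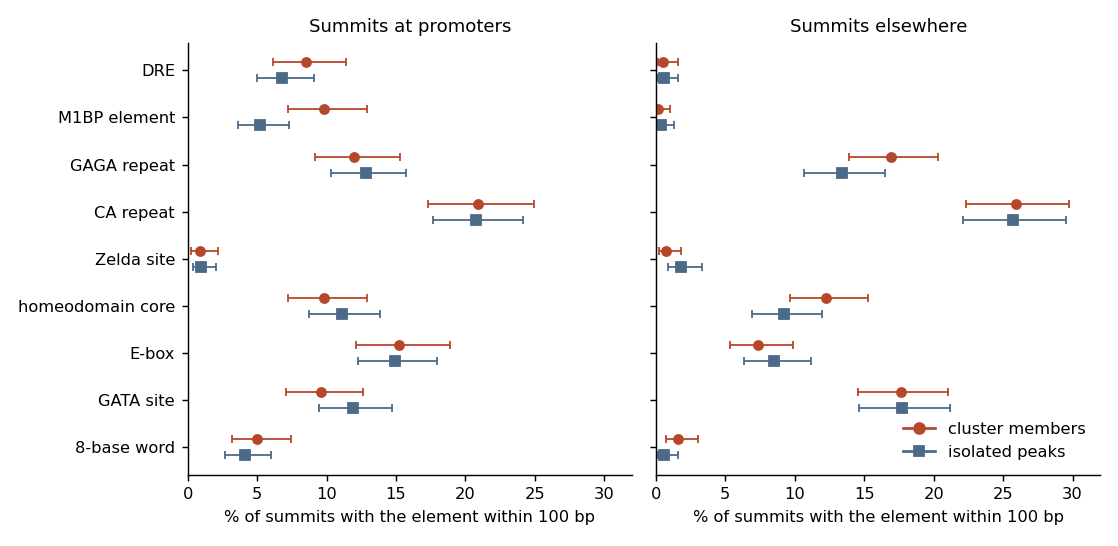
Share of summits (horizontal axis, %) with each element within 100 bp, for cluster members (circles) and isolated peaks (squares), at promoter summits (left) and elsewhere (right), with exact 95% intervals. The M1BP element at promoters, 9.80% against 5.24%, is the widest separation among promoter summits, and the 8-base word is GAATACCC.

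Elements were found in different numbers of clusters, and these counts depend on how common each element is and on cluster size, so they carry no test. Over all 3582 peaks the shares were 13.4% for GAGA repeats, 14.2% for GATA sites, 11.1% for the homeodomain core and 12.1% for the E-box. They were 1.01% for the Zelda site, 3.88% for the DRE, 3.77% for the M1BP element, 2.90% for GAATACCC and 23.2% for CA repeats. GAGA repeats were found in 99 clusters and at 2 or more members in 35 of them, GATA sites in 102 and 32, the homeodomain core in 88 and 25, and the E-box in 90 and 16. The Zelda site was found in 8 clusters and at 2 or more members in 0. The DRE was found in 34 clusters, and in 7 of them at 2 or more members. It was found at 3 of the 4 members of the cluster of CG3732, RpS24 and Cdk9. The M1BP element was found in 42 clusters and at 2 or more members in 4. GAATACCC was found in 29 and at 2 or more members in 3, and CA repeats in 150 and 63. GATA sites and CA repeats were each found at 4 of the 13 members at bun, beside the shares over all peaks given above.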

How the data were processed

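Starting points were the region lists the authors deposited on dm6: 30000 regions for each of the 3 replicates and for the pooled replicates, and a list of 3582 regions thresholded by irreproducible discovery rate. Each deposited region carries a signal value, used to rank within a list, and a −log10 q-value, not used. The aligner, the caller and the threshold: not given in the sources used here. Genes came from Ensembl release 115, and sequence came from RefSeq after arm names and lengths had been compared. Summits were chained at 10000 bp. Location classes and elements were compared by Fisher's exact test, two-sided, with Benjamini-Hochberg adjustment at 0.05 (Python 3.11.15, scipy 1.17.1), replicates with an exact sign-flip test. Exact 95% intervals cover the number of peaks only, since depth is unknown. The functions were tested on simulated data. Of 604 list genes, 584 were matched. The members, lists and elements were chosen with earlier results of these data known. Clusters described 1 by 1 were the 10 with most summits, 5 further with the strongest peak and 5 further with the shortest span, named by the coding genes of their 3 strongest promoter peaks or, without one, the gene holding most summits. List genes with at least 3 summits of 1 cluster in the body were added, at most 4 per list. Other genes were named after their values were seen. Alternatives covered distance, cluster size, overlaps, signal, windows, comparison set and replicates.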

Additional observations from a re-analysis of the deposited data

How the results depend on the processing

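The number of clusters, 199, followed the rule: 106 at 5000 bp, 305 at 20000 bp, 389 with chains of 3 or more, 108 with 5 or more, and 34 among the 1791 peaks of highest signal. Without 1 replicate, using peaks met in both others, it ranged from 44 to 82, and merging overlapping peaks gave 190. The promoter odds ratio of 0.725 was 0.873 at 20000 bp (adjusted exact p = 0.169), 0.700 among the 1791 of highest signal (0.104) and 0.770 with 1 peak per cluster (0.153), where the call was lost. It ranged from 0.750 to 0.829 without 1 replicate. The intron odds ratio of 1.56 lost its call among the 1791 of highest signal (1.45, adjusted exact p = 0.104) and with 1 peak per cluster (1.37, 0.153), and ranged from 0.962 to 1.41 without 1 replicate. The share of members met in all 3 replicates, 52.0%, was 31.2% with a reciprocal overlap of 50%, 90.6% with all deposited regions, and 56.0 to 69.3% for both others without 1 replicate. The cause of these changes was not tested. The mean promoter difference of −8.93 percentage points stayed below 0 in each setting tried, from −13.6 to −3.46. The count of elements past the threshold was 0 in all settings planned and away from promoters, and 1 at promoter summits, a setting added after the data were seen. No paired analysis between groups of samples was possible, because the labels give 1 group. Clustered and isolated regions were compared within each replicate, as given above.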
